A study of Mus musculus with 44 samples.

Results

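The regions described here are stretches of 1 kb (tiles) of the mouse autosomes whose mean CpG methylation lay between 35 and 65% in whole blood, hippocampus and frontal cortex alike. A tile was a member when it held at least 3 measured cytosines in the 24 h table of each tissue and when the mean of 3 saline hippocampus libraries, of 4 saline cortex libraries and of 3 blood libraries taken 24 h after lipopolysaccharide (LPS) each fell in that window. Of 77786 autosomal tiles that could be judged, 1248 were members. The members were thus chosen by the methylation levels of these 3 groups, so those levels are given as a description only, and tests are read only in comparisons among the other 9 groups of libraries. Contrasts with a group that the rule used are given as counts from which nothing is read.

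The study profiled DNA methylation by reduced representation bisulfite sequencing, which reads CpG-rich fragments cut from the genome, in a mouse model of stress and toxicant exposure. All mice were adult male wild type C57BL/6J animals of 8 to 12 weeks. All of them, saline animals included, drank water with corticosterone (CORT) at 200 mg/L and ethanol at 0.6% for 7 days, received the cholinesterase inhibitor diisopropyl fluorophosphate (DFP, 4 mg/kg) on day 8, had further CORT in alternating weeks to a total of 5 weeks, and were then given saline or LPS (0.5 mg/kg, subcutaneous). In blood 4 libraries came from saline mice and 4, 3 and 3 from mice taken 6, 12 and 24 h after LPS; in hippocampus the numbers were 3, 4, 3 and 4, and in cortex 4 throughout, which makes 44 libraries. Every saline library was taken at 6 h. Mice without CORT and DFP were not analysed here, and p-values measure the spread between these libraries only.

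Whole blood and brain tissue are mixtures of cell types, so a tile near the middle of the scale can hold cytosines that are methylated on part of the DNA molecules, or fully methylated and unmethylated cytosines side by side. Genomic imprinting gives the first kind in every tissue: at germline imprinted regions the egg or the sperm leaves a methylation mark that is kept on the copy from that parent after fertilisation, and the 2 copies then differ. The zinc finger protein ZFP57 binds a methylated hexamer in many such regions and helps to keep the mark, and the genes nearby are expressed from the copy of a given parent.

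Promoter sequences show both kinds of member. Each is the 250 bases upstream of a transcript start that lies in or just beside a member tile, taken from RefSeq (GRCm38.p6) and written 5′ to 3′ on the strand of the gene, with the CpGs that were measured in all 3 tissues in capitals. Plagl1 and Zrsr1 are imprinted, Boll is a germ cell gene, and Map10 encodes a protein of the microtubule cytoskeleton. The Plagl1 window is chr10:13090582-13090831 (+ strand), that of Zrsr1 chr11:22971755-22972004 (+), that of Boll chr1:55362729-55362978 (- strand) and that of Map10 chr8:125669568-125669817 (+).
Plagl1: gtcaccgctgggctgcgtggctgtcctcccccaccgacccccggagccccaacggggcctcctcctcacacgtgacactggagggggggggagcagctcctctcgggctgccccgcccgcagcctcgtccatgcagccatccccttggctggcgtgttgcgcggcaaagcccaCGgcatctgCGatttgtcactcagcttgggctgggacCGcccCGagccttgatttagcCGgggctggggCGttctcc
Zrsr1: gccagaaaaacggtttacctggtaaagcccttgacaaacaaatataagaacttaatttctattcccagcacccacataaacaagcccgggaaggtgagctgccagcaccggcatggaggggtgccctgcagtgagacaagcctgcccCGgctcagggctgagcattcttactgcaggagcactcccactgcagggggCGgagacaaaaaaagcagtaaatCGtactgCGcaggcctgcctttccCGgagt
Boll: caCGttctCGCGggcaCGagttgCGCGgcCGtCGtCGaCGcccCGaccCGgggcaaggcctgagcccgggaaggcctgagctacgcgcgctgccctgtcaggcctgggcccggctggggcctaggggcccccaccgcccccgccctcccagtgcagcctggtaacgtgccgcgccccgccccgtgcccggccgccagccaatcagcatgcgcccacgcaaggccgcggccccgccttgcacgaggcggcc
Map10: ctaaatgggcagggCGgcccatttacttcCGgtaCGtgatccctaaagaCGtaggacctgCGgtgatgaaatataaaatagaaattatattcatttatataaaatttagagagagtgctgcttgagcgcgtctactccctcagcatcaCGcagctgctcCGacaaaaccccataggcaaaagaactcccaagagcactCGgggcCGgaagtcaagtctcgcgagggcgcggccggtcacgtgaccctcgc

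In the rule's libraries the 6 measured CpGs of the Plagl1 window lay at 34.2 to 37.9% in blood, 33.5 to 41.1% in hippocampus and 28.4 to 40.3% in cortex. The 5 CpGs of Zrsr1 lay at 36.9 to 40.6%, 43.0 to 50.7% and 24.7 to 41.4%. The capitals of these windows lie at 28.4 to 50.7% except the fourth CpG of Zrsr1 in cortex, at 24.7%. The 12 CpGs of Boll ranged more widely, from 34.5 to 73.0% in blood and from 14.2 to 56.5% in cortex. At Map10 the first 5 capitals, up to base 61 of the printed window, lay at 70.5 to 87.5% in blood and 48.9 to 85.4% in cortex, and the 4 capitals from base 149 on lay at 2.12 to 20.7% and 0.0 to 2.67%, and the tile mean was 51.8% in blood. The hexamer TGCCGC, the core of the ZFP57 motif, searched on both strands, was found at base 161 of the Plagl1 window and base 167 of the Boll window. It was in 3643 of 31396 autosomal promoter windows of 300 bases (11.6%) and in 8 of 85 windows that touch a member tile (9.41%).

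Few members lay at imprinted loci. Within 5 kb of the span of a gene listed for a germline imprinted region lay 20 members, or 1.60% of members, against 158 of all tested tiles (0.203%); of those 158 tiles 12.7% were members. The 20 tiles belonged to Plagl1, Gnas, Igf2, Grb10, Zdbf2, Zrsr1, Peg13, Igf2r and Airn, H13, Mest, Nap1l5, Peg3 and Usp29, Magel2, Inpp5f, H19 and Cdh15. Of the 38 listed genes that had a tested tile, 21 had a member. Genes that share a tile are each counted there, as Commd1 with Zrsr1, Trappc9 with Peg13 and Herc3 with Nap1l5, so these genes are not separate loci. A further 3 members lay at Begain, Slc22a18 and Gab1, which are imprinted genes without a listed germline region of their own, out of 143 tested tiles. The count of 20 depended on 2 libraries: it was 12 without blood LPS 24 h replicate 2 and 10 without cortex saline replicate 1. It was also 10 with tiles shifted by 500 bases. Gene spans were used, not coordinates of the imprinted regions, so a tile at a listed gene need not lie in its region. The names imprinted members and imprinted tiles below are used in this sense.

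Most tested tiles at the listed genes missed the window in at least 1 tissue. These tiles cover whole gene spans and need not lie in an imprinted region. Of the 158 tiles, 90 were in the window in no tissue, 25 in 1 and 23 in 2; 42 were below it and 44 above it in all 3. Another 21 were no members but lay between 25 and 65% in all 3 tissues, among them tiles at Snrpn and Snurf, Kcnq1ot1, Peg10 and Sgce, Nnat, Slc38a4 and Airn. The tile at the start of Kcnq1ot1, a long noncoding RNA that silences its neighbours, had 27.1% in blood, 34.3% in hippocampus and 28.6% in cortex. The Snurf tile (chromosome 7, 60005000 to 60005999) had 30.6%, 40.8% and 33.2%. The tile of Impact, an imprinted gene of neurons (chromosome 18, 12973000 to 12973999), was below the window in blood and cortex, at 25.2%, 36.5% and 34.5%. Members just inside the limits were a tile in Mybpc2 at 35.01% in blood and a tile near Wnt1 at 64.99% in cortex, and a tile in Itga1 at 34.98% in cortex was just outside.

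Within the window, imprinted members lay low. In the rule's groups the median of the 20 was 39.9% in blood, 41.8% in hippocampus and 37.8% in cortex, against 52.6, 49.1 and 50.8% over the 1225 members away from listed genes. They held more cytosines, with a median of 13.5 measured in blood against 5. In LPS groups that took no part in the rule the order was the same, but the gap varied. The median was 44.5% in LPS 6 h blood against 53.1% for other members, and 38.7% in LPS 24 h cortex against 52.1%. In LPS 24 h hippocampus it was 38.5% against 43.9%. Saline blood, also outside the rule, had nearly equal medians, at 46.6% against 48.4%. Here and below, the level of a group is taken over cytosines found in all 3 tables of a tissue, which leaves 17 of the 20 tiles in blood.

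Plagl1, a zinc finger transcription factor that restrains growth, had 2 adjacent members. The first (chromosome 10, 13090000 to 13090999), with 39 to 40 cytosines and the promoter printed above, had 44.96% ± 3.36 in saline blood (SD, n = 4) and 41.4% ± 2.11 in LPS 6 h blood (n = 4). It had 37.8% ± 6.15 in LPS 24 h hippocampus (n = 4) and 35.2% ± 7.61 in LPS 24 h cortex (n = 4). The ranges of these groups overlap. Grb10, an adaptor that restrains insulin and growth factor signalling, had 47 cytosines (chromosome 11, 12026000 to 12026999), at 49.1% ± 2.63 in saline blood, 45.03% ± 5.72 in LPS 6 h blood, 37.2% ± 4.94 in LPS 24 h hippocampus and 37.1% ± 4.92 in LPS 24 h cortex.

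Gnas, the stimulatory G protein alpha subunit, had 3 members in its complex locus. Those at 174285000 and 174300000 of chromosome 2 lay at 47.8% ± 6.19 and 40.3% ± 5.36 in LPS 6 h blood, and the tile between them, at 174298000, lay higher, at 52.2% ± 4.22. In LPS 24 h cortex the tile between was again the highest, at 49.8% ± 10.5 against 37.4% ± 7.15 and 38.8% ± 7.18, with overlapping ranges. Mest, a hydrolase expressed from the paternal copy, lay at 44.6% ± 3.35 in saline blood and 33.5% ± 2.66 in LPS 24 h cortex, and was below the window in LPS 6 h hippocampus at 25.6% ± 7.48. H19, a noncoding RNA expressed from the maternal copy, had 39.4% ± 10.8 in LPS 6 h blood and 46.0% ± 3.08 in LPS 24 h cortex (chromosome 7, 142578000 to 142578999).

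The remaining loci lay in the same range. Peg3, a zinc finger gene active on the paternal copy (chromosome 7, 6730000 to 6730999, 8 cytosines), had 46.4% ± 4.61 in LPS 6 h blood, 43.5% ± 5.74 in LPS 24 h hippocampus and 46.2% ± 1.82 in LPS 24 h cortex, and is a locus whose 3 tissues overlap. The tile at Airn, the noncoding RNA that silences Igf2r (chromosome 17, 12742000 to 12742999), had 49.0% ± 5.73 in saline blood, 39.9% ± 9.71 in LPS 6 h blood and 36.6% ± 8.71 in LPS 24 h cortex. Peg13, a noncoding RNA within Trappc9, had 48.9% ± 5.31 in saline blood, 39.0% ± 5.51 in LPS 6 h blood and 37.4% ± 7.92 in LPS 24 h cortex. Inpp5f, an inositol phosphatase with a variant that is imprinted in brain, was at the low edge, with 34.4% ± 7.05 in LPS 6 h blood, 26.6% ± 5.91 in LPS 6 h hippocampus and 38.4% ± 3.35 in LPS 24 h cortex. Cdh15, a muscle cadherin, had 48.0% ± 9.68 in LPS 6 h hippocampus and 36.9% ± 6.73 in LPS 24 h cortex. In LPS 6 h hippocampus only 8 of the 20 tiles had a mean within 35 to 65%, against 15 in LPS 6 h cortex and 16 of 17 in LPS 6 h blood.

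**Figure D1:**
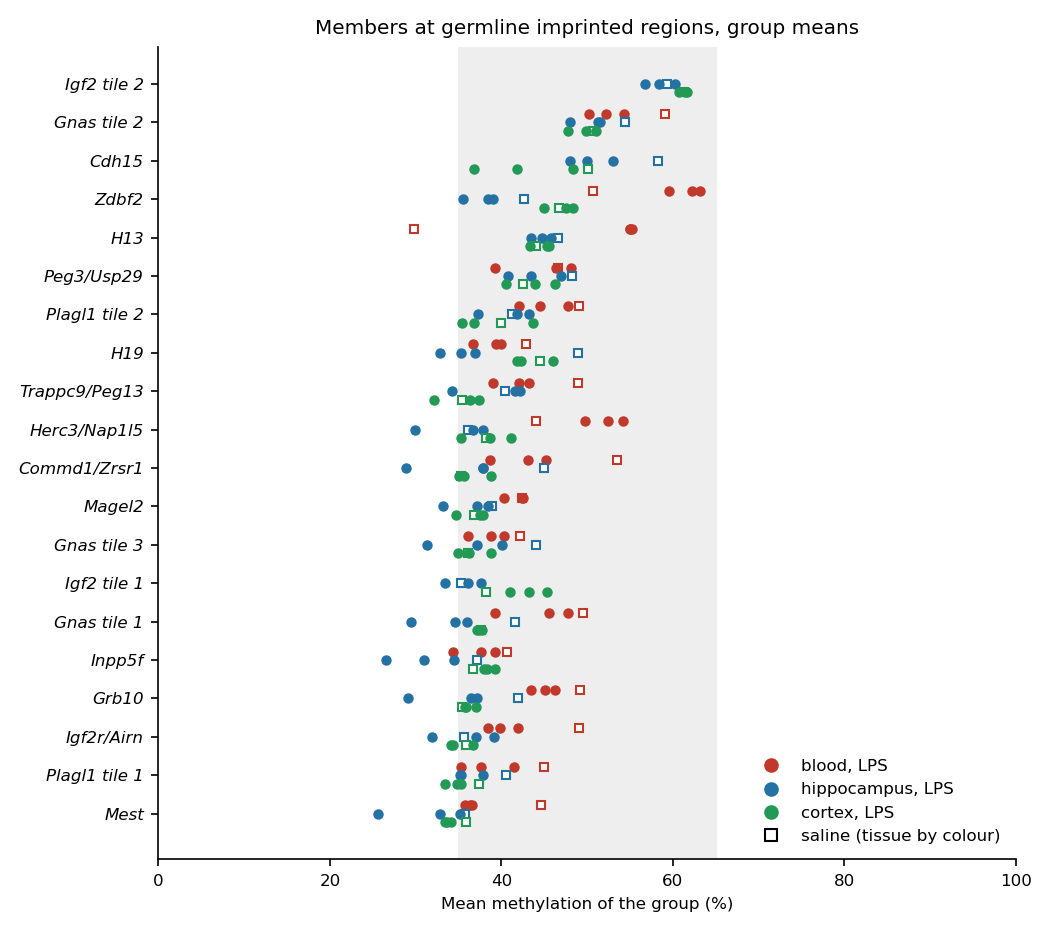
Mean methylation (x axis, %) of the 20 members within 5 kb of genes listed for germline imprinted regions, in each of the 12 groups. The tiles need not lie in those regions. Rows are ordered by their median, with tiles of 1 gene numbered along the chromosome. Colour gives the tissue, open squares saline and filled circles the 3 LPS times, and grey the window of 35 to 65%; most tiles lie in its lower part, and H13 in saline blood, at 29.8%, stands far left of its other groups. The 2 Igf2 tiles and Cdh15 have no blood points because fewer than 3 of their cytosines were in all blood tables.

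Over the members the printed contrast between intermediate cytosines and mixtures was one of degree, as most other members also held mainly intermediate cytosines. In the groups that took no part in the rule, a median of 100% of an imprinted member's cytosines lay between 25 and 75%, and 13 of the 20 tiles had all their cytosines there. Of other members a median of 77.8% did, 359 of 1225 had all cytosines there, and in 142 fewer than 50% did. With limits of 30 and 70%, chosen after the data were seen, the medians were 89.4 and 66.7%. No test was made, since tiles are not replicates.

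Single cytosines show both kinds. In the Plagl1 tile all 39 cytosines of LPS 6 h blood lay between 37.1 and 48.0%. In LPS 24 h hippocampus all 39 lay between 29.4 and 44.2%, and in LPS 24 h cortex the 40 cytosines lay between 22.5 and 43.7%, 2 of them under 25%. In the tile of Babam1, a subunit of the BRCA1-A DNA repair complex, 10 of 19 cytosines were under 25% and 9 over 75% in LPS 6 h blood and none between (chromosome 8, 71397000 to 71397999). Sirt7, a nuclear deacylase, had 9 of each among its 18 (chromosome 11, 120618000 to 120618999). Magel2, an imprinted gene of the Prader-Willi region, was mixed: 29 of 39 cytosines were between 25 and 75%, but levels ran from 6.94 to 86.5% along the tile. At H13, a signal peptide peptidase with the imprinted retrogene Mcts2 in an intron, only 25% of cytosines were intermediate, and the tile lay 8852 bases from the start of Mcts2.

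**Figure D2:**
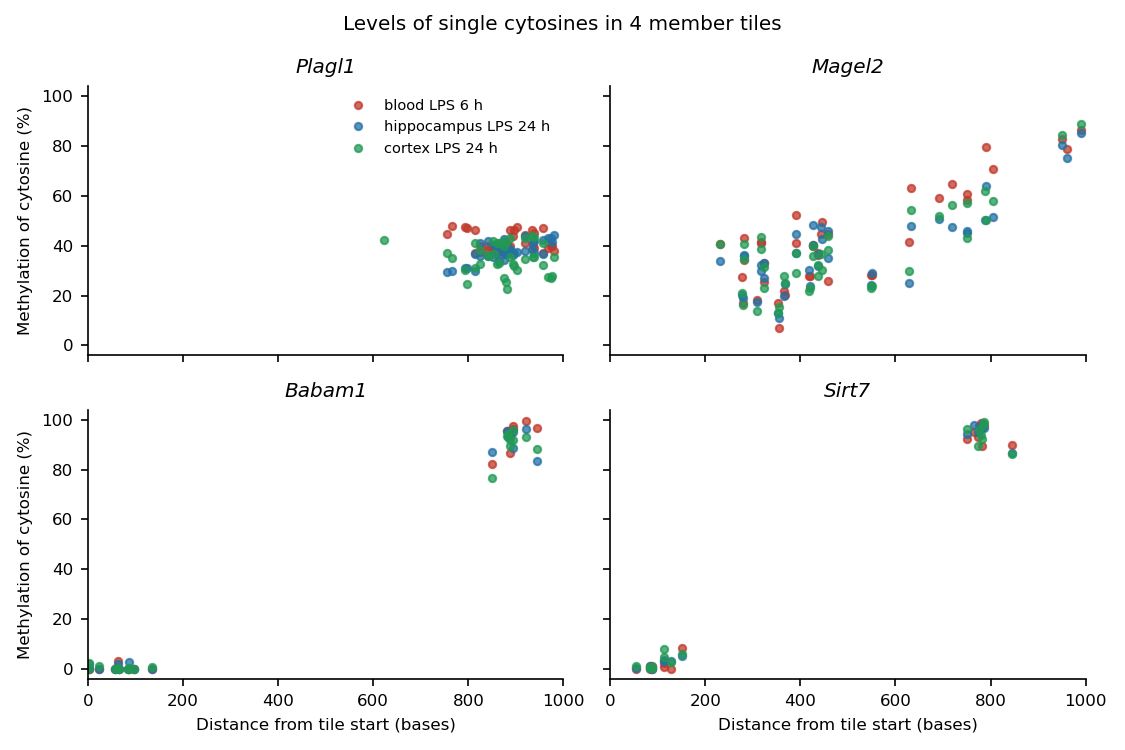
Methylation of single cytosines (y axis, %) against their distance from the tile start (x axis, bases) in 4 members, as the mean of the 4 libraries of LPS 6 h blood, LPS 24 h hippocampus or LPS 24 h cortex. The Plagl1 cytosines lie between 22.5 and 48.0% over the 3 groups, with medians of 39.98, 37.8 and 35.4%, those of Magel2 climb along the tile, and those of Babam1 and Sirt7 fall into a block near 0% and a block near 100%.

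Imprinted members were not steadier between libraries than other members. Over the 9 groups that the rule did not use, the median SD between libraries was 5.90 percentage points at the 20 imprinted tiles (range 2.40 to 8.67) and 5.04 at other members (0.575 to 17.7). Among tiles with 30 or more cytosines over the 3 tables of 24 h it was 5.93 at 12 imprinted tiles and 4.15 at 223 others. Against non-member tiles at 35 to 65% in the same group, imprinted tiles had 5.38 and the non-members 7.16 in LPS 6 h cortex. Outside the rule's groups only LPS 6 h and LPS 12 h hippocampus went the other way. With only tiles of many cytosines kept, imprinted tiles had the larger SD except in LPS 6 h cortex (5.43 against 3.998 in LPS 6 h blood). Both Igf2 tiles and Cdh15 rest on brain groups alone. H13 had the smallest SD of the 20, 2.40, and Cdh15 the largest, 8.67, from 4 cytosines in each brain region. Of 17 imprinted tiles measured in all 9 groups, 4 stayed in the window in each, as did 383 of 1092 other members.

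Part of the spread was shared between tiles. Cortex LPS 12 h replicate 3 was the lowest of its group at 18 of 20 imprinted tiles, and hippocampus LPS 12 h replicate 2 at 17 of 20. The mean over imprinted tiles was 30.8% in that cortex library against 40.8 to 44.7% in the others of its group, and 31.8% in that hippocampus library against 44.0 and 45.6%. The other members moved with them, with 42.2% in that cortex library against 51.6 to 52.5%. When each library's mean over the other members was removed, an alternative chosen after the data were seen, the median SD was 4.58 at imprinted tiles and 4.19 at other members. Read depth per cytosine is not in the files, and the part of depth in these shifts was not tested.

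**Figure D3:**
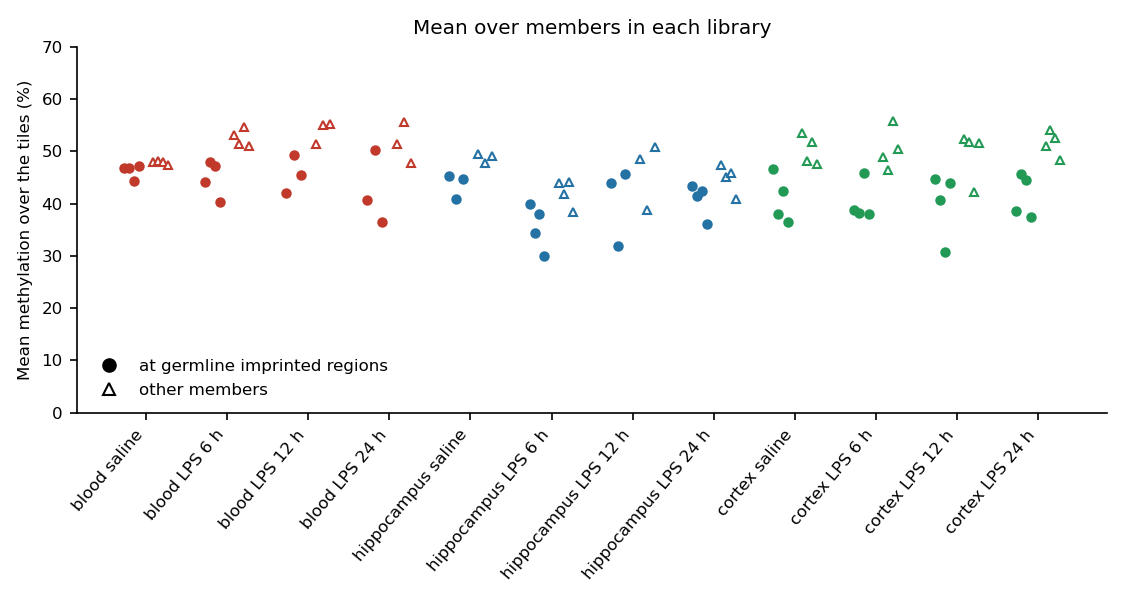
Mean methylation (y axis, %) over the members near genes listed for germline imprinted regions (circles) and over other members (triangles) in each of the 44 libraries, by group. In every group except saline blood and cortex LPS 6 h, the same library is the lowest in both sets. The hippocampus LPS 12 h and cortex LPS 12 h groups are examples.

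The spread of a few other members stood far above this. Ect2l, from a list of genes beside transposable elements (IAPs) whose methylation varies between genetically identical mice, had the largest median SD of 1092 ranked members, 17.7 (chromosome 10, 18139000 to 18139999). Its values in LPS 24 h cortex were 73.5, 69.9, 28.3 and 67.4%. In LPS 6 h hippocampus they were 9.72, 43.7, 31.5 and 6.67%. In LPS 6 h blood they were 40.7, 65.6, 47.5 and 26.7%, and these groups overlap. Only 3 cytosines carry the value, all of them intermediate. The labels do not tie libraries of different tissues to the same animal. Mslnl, the other member from the list of genes near such elements, ranked 433 with an SD of 5.33, and had 54.0 to 58.3% in LPS 6 h blood.

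Among the 10 most variable members, 2 rested on many cytosines. Gm31881, a predicted gene (chromosome 3, 152092000 to 152092999, 20 to 21 cytosines), had an SD of 12.1, with 94.7% of its cytosines intermediate and libraries from 21.1 to 65.9%. Gm16372 (chromosome 12, 24493000 to 24493999, 16 to 17 cytosines) had an SD of 10.2 and libraries from 21.3 to 64.4%. The 8 others, of which Aff3, a transcriptional elongation factor, is an example with 3 cytosines and an SD of 11.6, had 3 to 8. At the other end stood Babam1 with an SD of 0.575, whose libraries outside the rule ran from 41.6 to 45.5%, Sirt7 with 0.841 and Odf3l2 with 0.862. In 9 of the 10 steadiest members fewer than 25% of the cytosines were intermediate, the exception being Dusp4, a MAP kinase phosphatase, with 36.4%.

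**Figure D4:**
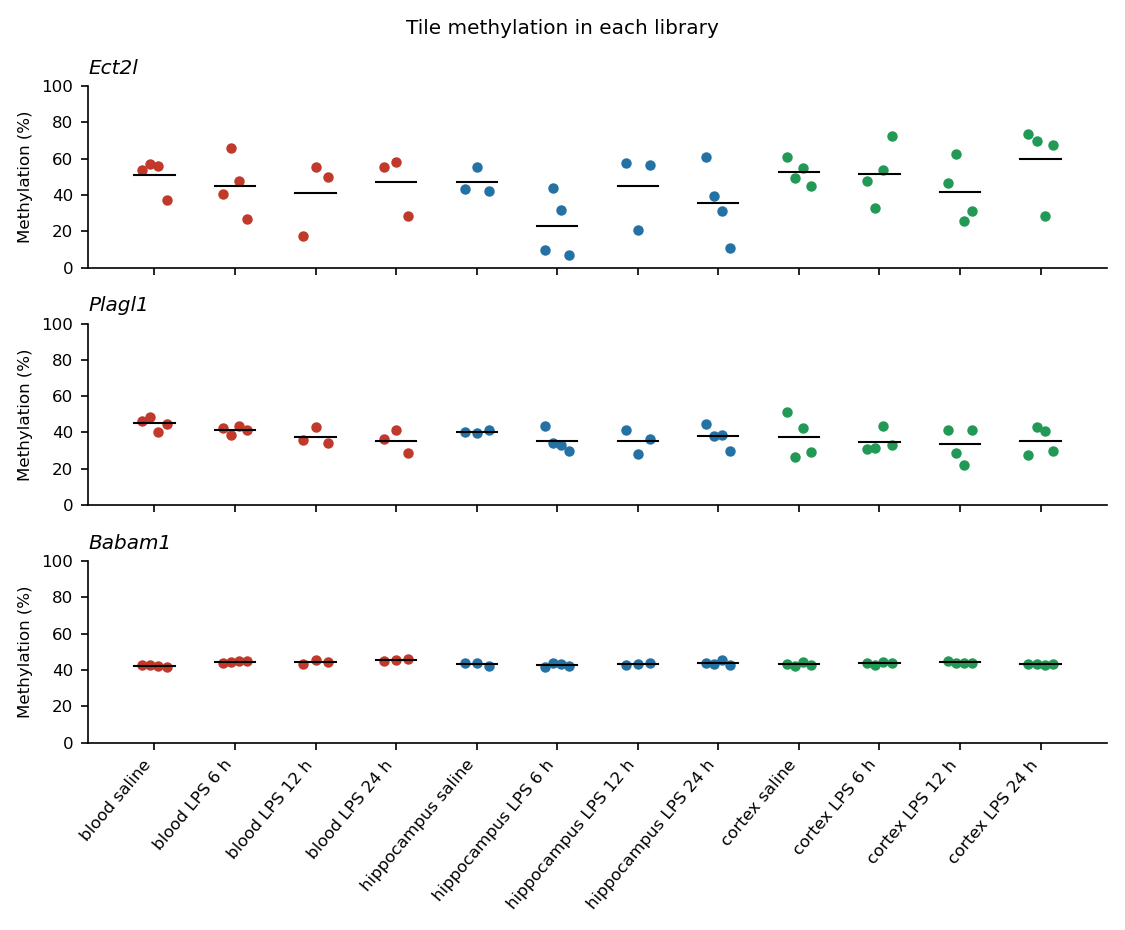
Methylation of 3 member tiles (y axis, %) in each of the 44 libraries (points) by group, with the group mean as a line. Ect2l runs from 6.67 to 73.5% over all libraries and from 11.0 to 61.2% within LPS 24 h hippocampus, Plagl1 (the tile with the printed promoter) from 21.96 to 51.5%, and Babam1 stays between 41.6 and 46.0%.

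Before the comparisons with saline blood, a feature of those libraries must be given. Over 17 leukocyte genes (16 of them in hippocampus) the median gene level was 56.7% in saline blood (56.4 to 58.3% over its libraries) and 36.0 to 36.6% in the 3 LPS blood groups, against 67.0 to 72.1% in brain groups. Over 17 brain cell genes it was 30.2% in saline blood, 43.3 to 43.8% in LPS blood, and 20.3 to 31.0% in brain groups. Saline blood thus lay between LPS blood and brain on the leukocyte list and within the brain range on the brain list, and all 4 of its libraries lay between on the leukocyte list. Over 4 erythroid and platelet genes saline blood had 48.1%, LPS blood 26.07 to 26.85% and cortex 42.1 to 46.3%. Hippocampus, with 2 of these genes, had 11.5 to 13.55%, so saline blood lay above every brain group on that list. The part of these differences in the results that follow was not tested.

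LPS blood was compared with saline blood on libraries outside the rule, although the rule held LPS blood at 24 h inside the window. At 6 h, limma called 646 of 1239 members (adjusted p under 0.05 and at least 5 points), 444 higher and 202 lower, or 52.1%, beside 41.4% of all 74674 tiles tested (29.6% higher and 11.8% lower). The median difference was 3.54 points over members and 1.27 over all tiles. Tiles of any kind that lay between 35 and 65% in saline blood were called in 81.6% of cases. At 12 h, 635 of 1147 members were called, 462 higher and 173 lower, beside 44.6% of all tiles (34.6% higher and 9.96% lower). With each library centred on its own mean, 18927 of all tiles were higher and 13948 lower at 6 h and 17111 higher and 9742 lower at 12 h.

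No such difference separated the LPS blood groups. LPS 12 h blood was compared with LPS 6 h blood after the data were seen, because this leaves the saline libraries out. It gave 0 calls among 1144 members and 59598 tiles (0.0%) by limma. At an unadjusted p under 0.05 (limma) lay 31 members, and the share of all tiles at that level was not counted.

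Of the imprinted members limma called 5 of 20 at 6 h, 4 higher and 1 lower, beside 41.4% of all tiles, and 4 of 17 at 12 h, 3 higher and 1 lower, beside 44.6%. Whether imprinted members were called less often than others was not tested. With each library centred the calls were 2 higher and 4 lower at 6 h and 2 higher and 3 lower at 12 h, so the balance of the calls depends on the scaling. Uncalled differences included, 15 of 20 had lower values in LPS 6 h blood as deposited and 16 of 20 after centring. The number called at 6 h was 3 without LPS 6 h replicate 1 or saline replicate 3, and 2 without LPS 6 h replicate 3 or saline replicates 1 or 2. At 12 h it was 2 without LPS 12 h replicate 1 or saline replicates 1 or 2, and 6 without LPS 12 h replicate 2. It was 3 and 2 with the replicate number as a block.

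Of the 20 tiles H13 had the largest difference at 6 and at 12 h. As given above, this tile lies kilobases from the start of Mcts2, and most of its cytosines were not intermediate. Its tile (chromosome 2, 152696000 to 152696999, 13 cytosines) had 30.0, 32.3, 30.3 and 26.5% in the saline blood libraries and 57.5, 51.3, 54.8 and 56.5% in LPS 6 h blood. The groups do not overlap, and the difference was 25.3 points (SE 2.75, adjusted p = 3.72e-06, limma). At 12 h it was 25.4 points (SE 2.58, adjusted p = 6.01e-06, limma). The 6 LPS groups of the brain regions had means of 43.3 to 45.7% over their own cytosines. The call in blood was kept in each fit that left out a library. The level depends on which cytosines are counted: over the 9 found in the 6 h tables of all tissues LPS 6 h blood had 40.5% and cortex 35.5%.

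The other called tiles among the 20 had smaller differences than H13. Igf2, a fetal growth factor expressed from the paternal copy, rose at its promoter tile (chromosome 7, 142657000 to 142657999, 5 cytosines) from 46.4 to 62.5% at 6 h (SE of the difference 4.30, limma adjusted p = 0.00728, limma), and was called in all 8 fits that left out a library. Zdbf2, whose imprinted expression is set in the embryo, rose at 6 h from 50.7% ± 2.98 to 59.6% ± 2.65 (adjusted p = 0.0305, limma, called in 2 of 8 such fits) and at 12 h to 63.2% ± 2.12 (n = 3, adjusted p = 0.00397, called in 7 of 7). Nap1l5, a retrogene within Herc3, rose from 44.0% ± 2.04 to 54.2% ± 6.43 at 6 h (adjusted p = 0.0289, limma) and to 52.4% ± 4.19 at 12 h (adjusted p = 0.0343), each called in 3 fits or fewer. Mest fell from 44.6% ± 3.35 to 36.5% ± 3.70 at 6 h (adjusted p = 0.0386, limma, called in 2 of 8 fits), and Zrsr1, a splicing factor retrogene within Commd1, from 53.4% ± 3.63 to 43.2% ± 7.15 at 12 h (adjusted p = 0.0391, called in 2 of 7).

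Of the 3 tiles at other imprinted genes, Gab1, a docking protein imprinted in placenta, rose from 37.8% ± 3.29 in saline blood to 65.1% ± 1.37 at 6 h (3 cytosines, adjusted p = 3.53e-06, limma). Its 4 saline libraries lay at 34.4 to 41.5% and its LPS 6 h libraries at 63.3 to 66.7%. Begain, in the Dlk1 and Meg3 domain, had 62.7 to 63.8% in the saline libraries, the narrowest range of the 3, and 31.0, 48.8, 60.2 and 50.2% in LPS 6 h blood. Over the 61 cytosines of the 6 h table it fell by 14.7 points (adjusted p = 0.0173, limma), and at 12 h by 25.6 points (adjusted p = 0.000159). Slc22a18, a transporter of the Kcnq1 domain, rose by 17.9 points at 12 h over 4 cytosines (adjusted p = 0.000359, limma), and at 6 h, over 7 cytosines, had 55.3% in saline and 61.4% in LPS blood without passing (adjusted p = 0.130).

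**Figure D5:**
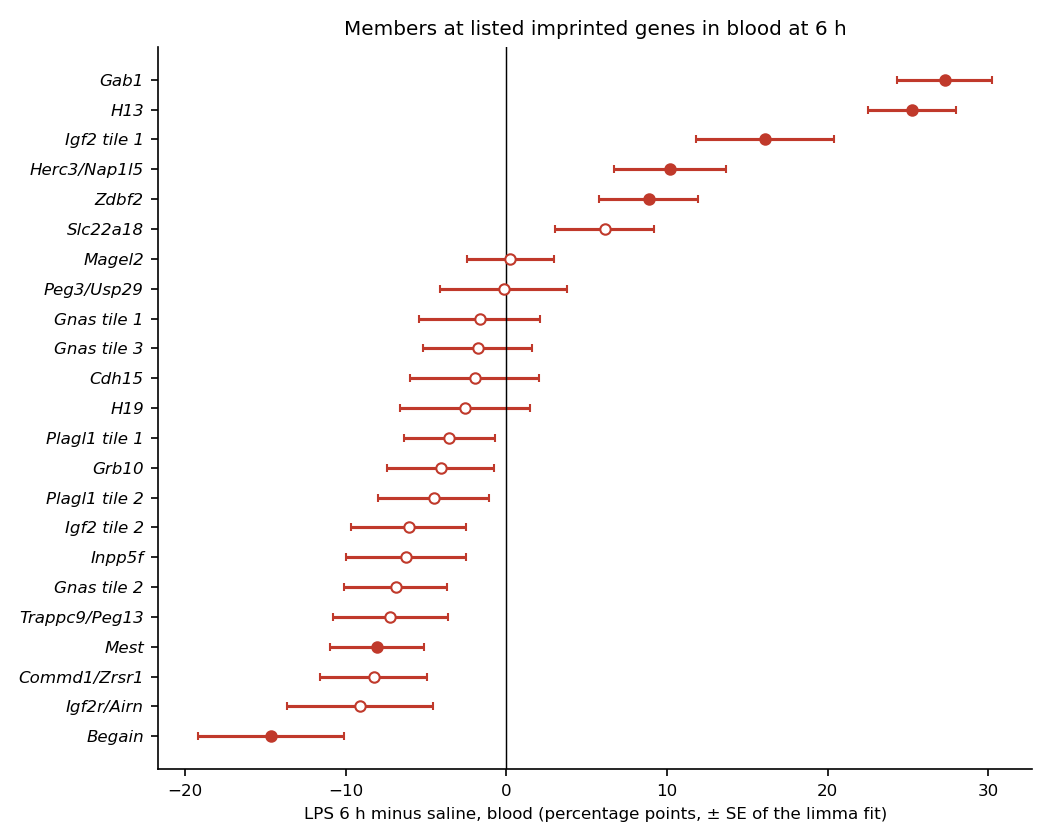
Difference between LPS 6 h and saline blood (x axis, percentage points, with the SE of the limma fit as bars) at the 23 members at listed imprinted genes (rows, ordered by the difference). Filled points passed the test; Gab1 and H13 lie near 25 points or above, and most tiles lie between 0 and -10 without passing.

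Members away from imprinted genes are described next. Their adjusted p-values only mark the tiles as called by limma, and nothing is read from the size of a difference. The reason is that LPS blood at 24 h had to lie in the window and saline blood did not. The largest rise at 6 h was at a tile 3822 bases from Lrrc1, a leucine-rich repeat gene (chromosome 9, 77426000 to 77426999), from 22.4% ± 4.37 to 70.7% ± 3.28 (adjusted p = 5.68e-08, limma). Ebf1, a transcription factor of B cells, rose in its gene body from 16.9% ± 3.64 to 61.2% ± 3.72 (adjusted p = 5.72e-08). Junos, the antisense gene beside Jun, rose from 20.9% ± 5.69 to 66.0% ± 8.70. Falls were seen at Tnfaip8l1, from 75.8% ± 3.01 to 40.1% ± 2.60 (adjusted p = 4.17e-07), at Cux2, a homeobox gene, from 72.7% ± 2.49 to 40.5% ± 5.81 over 14 cytosines, and 819 bases from Ifnlr1, a receptor chain for type III interferon, from 74.0% ± 6.21 to 40.2% ± 15.7. In each of these tiles the saline and LPS libraries do not overlap. With saline blood in the rule in place of LPS blood, 2569 tiles qualified.

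Brain tissue gave no calls over time. Hippocampus at 24 h against 6 h after LPS had 0 of 1216 members called by limma (0.0% of 51964 tiles). At an unadjusted p under 0.05 (limma) lay 42 of these members. Cortex had 0 of 1235 called (0.0% of 69461 tiles), with 11 at that unadjusted p. The share of all tiles at that unadjusted p was not counted. All 20 imprinted tiles were higher at 24 h in hippocampus, by a median of 5.59 points (range 1.62 to 9.57), against 2.74 over members and 1.05 over all tiles, and all 20 were so after centring, but the smallest adjusted p was 0.941. Beside this, hippocampus LPS 6 h replicate 4 was the lowest of its group at 13 of the 20, with a mean of 30.0% against 34.33 to 39.98%; without it 18 of 20 were higher and the median was 4.00.

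Against saline, which the rule used, no member was called in hippocampus or cortex at 6, 12 or 24 h (0.0% of tiles in each). In hippocampus 338 members had an unadjusted p under 0.05 (limma) at 6 h, 13 at 12 h and 138 at 24 h, and in cortex 12, 3 and 15. The share of all tiles at that unadjusted p was not counted, so nothing is read from these numbers. All 20 imprinted tiles were lower in LPS 6 h hippocampus than in saline, by a median of 6.58 points, beside median differences of -6.63 points over members and -2.69 over all tiles. Members had to lie in the window in the saline libraries, so these differences are no test.

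Between tissues at LPS 6 h, limma called 367 of 1206 members in hippocampus against cortex, 13 higher and 354 lower, beside 24.0% of 53041 tiles (2.71% higher and 21.3% lower). Of the imprinted 20 only Zdbf2 was called, at 35.6% ± 4.89 in hippocampus and 48.3% ± 5.75 in cortex (adjusted p = 0.0191, limma), and was lost without hippocampus LPS 6 h replicate 4 or cortex LPS 6 h replicate 1. The largest falls were at predicted genes, such as a tile 4766 bases from Gm30912 at 34.6% ± 2.97 against 70.7% ± 2.35. Rises included Rapgef4, an exchange factor activated by cyclic AMP, at 49.0% ± 10.6 against 25.6% ± 2.32 (3 cytosines, adjusted p = 0.000713), and Npas4, a transcription factor induced by neuronal activity, at 50.9% ± 12.6 against 33.3% ± 8.95 (adjusted p = 0.0273), whose libraries overlap and whose call was lost in 6 of the 8 fits that left out a library. The rule held the saline means of both regions in the window.

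Blood against cortex at LPS 6 h gave 461 of 1206 members, 280 higher and 181 lower, beside 51.1% of 56759 tiles (32.8% higher and 18.3% lower). Tiles of any kind that lay between 35 and 65% in LPS 6 h cortex, a group of this same contrast, were called in 83.8% of cases. The rule held LPS 24 h blood and saline cortex both in the window, which limits the difference between these tissues at members. The lower share of members called is therefore not read. With each library centred the members split 236 higher and 252 lower, and all tiles 16457 and 16547. Of the imprinted 20, 6 were called, and 3 to 9 when a library was left out (3 without blood LPS 6 h replicate 2 or 3 or cortex LPS 6 h replicate 2 or 4, 9 without cortex LPS 6 h replicate 3). Both Igf2 tiles passed in all 8 such fits, in opposite directions: the promoter tile had 62.5% in blood and 41.0% in cortex (adjusted p = 2.88e-05, limma), and the tile at 142665000 had 51.2% and 71.4% over the 4 cytosines measured in both tissues (adjusted p = 0.000117, limma). Over all 7 cytosines of the second tile cortex had 61.4% ± 8.83. Away from imprinted genes Mtss1, a regulator of the actin cytoskeleton, had 21.2% ± 9.66 in blood and 65.1% ± 7.85 in cortex (adjusted p = 1.59e-05), and Cdh11, a cadherin, 66.2% ± 4.09 and 31.6% ± 8.94 (adjusted p = 1.70e-06).

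By position, 53.2% of members lay inside genes away from a start, as did 47.7% of tested tiles. Within 1 kb of a transcript start lay 13.8% of members and 25.02% of tested tiles (chromosome 18 left out, for which no starts were used), and no member overlapped a Hox gene among 127 tiles. Gene models named only Gm or Rik overlapped 12.8% of members and 8.51% of tiles. Of 69 tiles on clustered protocadherins, cell adhesion genes from which each neuron expresses its own subset, 12 were members. Their median was 48.6% in LPS 6 h blood, 42.4% in LPS 6 h hippocampus and 42.7% in LPS 6 h cortex; 1 of 12 was called in blood at 6 h (lower), 3 at 12 h (higher), none of 11 between the brain regions, and 7 of 11 in LPS 6 h blood against cortex (6 higher and 1 lower). A stretch of chromosome 12 between 18 and 24 Mb, with many predicted genes, held 13 members of 162 tiles, with a median of 22 to 23 cytosines a tile and group medians from 42.1 to 53.1%; none of the 13 was called in blood at 6 or 12 h or between the brain regions, and 6 were higher in LPS 6 h blood than in cortex. Over all tiles the shares called were 41.4% in blood at 6 h, 44.6% at 12 h, 24.0% between the brain regions and 51.1% in blood against cortex. These stretches were picked after their counts were seen.

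Of a list of 20 germ cell genes, 17 had a tested tile and only Dazl had a member; 1 of 44 tiles (2.27%) was one. Boll, Pou5f1 and Dkkl1, which are not a tested group, were picked after their values were seen. Dazl is an RNA-binding protein of germ cells. It had 46.6% ± 1.55 in LPS 6 h blood over 31 cytosines and 46.6% ± 2.63 in LPS 6 h cortex over 34. Its 55.5% ± 1.21 in LPS 6 h hippocampus rests on 20 cytosines, fewer of the tile. On the 30 cytosines shared by the 6 h tables the order differed: hippocampus had 38.2%, cortex 40.15% and blood 45.1%. Neither hippocampus nor blood passed against cortex there (adjusted p = 0.700 and 0.152, limma). Boll, a relative of Dazl, had 62.5% ± 4.50 in LPS 6 h blood and 38.9% ± 4.53 in LPS 6 h cortex. Over the 25 cytosines shared by the 6 h tables the Boll difference was 21.1 points (SE 3.73, adjusted p = 0.000112, limma), and the hippocampus, at 42.8% against 40.7% in cortex, did not pass (adjusted p = 0.759). Pou5f1, a pluripotency factor, fell in blood from 57.0% ± 3.31 in saline to 39.9% ± 3.17 at 6 h (adjusted p = 0.000354, limma), and Dkkl1, a gene of testis and early embryo, rose from 35.8% ± 1.46 to 50.7% ± 5.27 (adjusted p = 0.00127). Dazl and Boll did not pass in blood at 6 h (adjusted p = 0.654 and 0.0585, limma), and Boll passed at 12 h, from 53.8 to 66.4% (adjusted p = 0.00640).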

How the data were processed

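Per the labels, DNA of whole blood, hippocampus and frontal cortex was made into bisulfite libraries from 100 ng with the Ovation RRBS Methyl-Seq System. The 9 tables the authors deposited give the percent methylation of each cytosine in each library, with no read counts, so depth is unknown and no counting interval can be given. Per the submitters' processing notes, the tools were methylKit, Bismark with Bowtie2, SAMtools, FastQC and Trim Galore, and the builds GRCm38 and mm10. No source used here gives their versions or a coverage minimum. Coordinates are those of the tables. Cytosines of a tile were averaged in each library, over 1083654 to 1380165 cytosines a table. Two-sided tests were made in R 4.3.3 with limma 3.58.1 (moderated statistics with a trend on the mean, p-values adjusted over all tiles tested by Benjamini-Hochberg) on tiles with 3 or more cytosines and a mean of 5 to 95%, and a call needed an adjusted p under 0.05 and 5 points. The script was tested on simulated data before use. Comparisons with saline used the groups of a single table. The brain time comparisons were fitted with all groups of the tissue, the comparisons between tissues with the LPS 6 h groups of all 3, and LPS 12 h against LPS 6 h blood with those groups alone, each over cytosines common to the tables. Replicate numbers did not pair libraries. The members and gene lists were chosen with earlier results of these data known. Named tiles are every imprinted locus with a member, the 10 steadiest and 10 most variable other members, and up to 5 rises and 5 falls per comparison; of these a selection is printed. Gene names come from RefSeq (GRCm38.p6), and no genome sequence was used beyond its promoter windows. Alternatives covered the window, cytosine minimum, tile placement, scaling, replicate block and each library left out.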

Additional observations from a re-analysis of the deposited data

Results flagged for a closer look

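Among 164 sets of 4 libraries, 8 held a library far from the other 3. The sets were the leading tile of each imprinted locus and the means over members. This is about the share that chance gives, near 1 in 20, so the cases are listed and nothing is read from them. At Nap1l5 a cortex LPS 12 h library had 23.0% against 38.39 to 40.02% in the others, and it was the library that lay low over members generally: its mean over members away from imprinted genes was 42.2% against 51.6 to 52.5%. At Gnas (chromosome 2, 174300000) a hippocampus LPS 6 h library had 45.1% against 24.9 to 28.2%, and a hippocampus LPS 24 h library had 28.8% against 42.6 to 44.8%. At Inpp5f a saline blood library had 32.5% against 42.8 to 43.9%. At Cdh15 a hippocampus LPS 6 h library had 33.7% against 51.4 to 54.8%, from 4 cytosines. At Gab1 a saline cortex library had 55.3% against 27.0 to 30.3%, from 3 cytosines. The mean over imprinted members was 45.9% in a cortex LPS 6 h library against 38.0 to 38.8%.

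In 2 tiles every LPS library moved one way in blood and the opposite way in hippocampus, and the difference was not tested. H13 at 6 h was 25.3 points higher in LPS blood and changed by -3.14 points in hippocampus. Gab1 at 24 h was 27.0 points higher in blood and changed by -14.9 points in hippocampus. The saline hippocampus and LPS 24 h blood libraries of these contrasts took part in the rule.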

How the results depend on the processing

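The number of members was 474 with a window of 40 to 60%, 2510 with 30 to 70%, 682 with 5 or more cytosines, 2569 with saline blood in the rule and 831 with the median over cytosines; leaving out each rule library gave 1184 to 1289. Near genes listed for germline imprinted regions the first 2 gave 3 and 31, tiles shifted by 500 bases gave 10, and leaving out a library 10 to 24. With 5 or more cytosines fewer tiles were tested. Members called in blood were 413 of 765 at 6 h, beside 17307 of 39488 tiles, and 375 of 664 at 12 h, beside 15279 of 32716. For hippocampus against cortex they were 230 of 698, beside 6812 of 26214 tiles. For blood against cortex they were 288 of 698, beside 15298 of 28114 tiles. With 3 or more cytosines, leaving out each library gave 583 to 664 of 1239, 560 to 594 of 1147, 271 to 451 of 1206 and 389 to 495 of 1206. All tiles called were then 28894 to 32016, 25596 to 27304, 10286 to 14130 and 27537 to 28845. The numbers of tiles tested stayed close to those given with the results. No member was called in the brain time comparisons or in LPS 12 h against LPS 6 h blood. The intermediate share of cytosines with limits of 30 and 70% was 89.4% at imprinted members and 66.7% at others. Replicate numbers did not pair the libraries (correlations of deviations from -0.0369 to 0.129). With the replicate number as a block, members called were 622 of 1239, 562 of 1147, 400 of 1206 and 486 of 1206 in the same 4 comparisons. All tiles called were 30781 of 74674, 26205 of 61811, 13315 of 53041 and 29318 of 56759. In the other 3 comparisons no member was called. At the largest rises and falls named away from imprinted genes, 517 alternative values kept their call, 9 lost it (7 at Npas4 and 2 at Gm20043, hippocampus against cortex) and none changed sign; how many imprinted tiles were called without a library is given with those results. Depth is unknown, so the part of counting error in tiles of 3 cytosines cannot be given.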
